A study of Mus musculus with 5 samples.

Results

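Laminins are the cross-shaped glycoproteins that form the scaffold of basement membranes. The 9 laminin chain genes Lama1, Lama2, Lama3, Lama4, Lama5, Lamb1, Lamb2, Lamb3 and Lamc1 were taken by symbol from the 22683 genes of the deposited expression table, and all 9 were found. Expression was compared between 3 mdx libraries and 2 wild-type (WT) libraries of total RNA from FACS-sorted quiescent satellite cells, the resting stem cells of skeletal muscle. The mdx mice model Duchenne muscular dystrophy through a mutation in the dystrophin gene Dmd, and the WT mice carry no allele or agent that the labels name. The labels do not state strain, age, muscle, sorting gate or whether each library came from its own animal, so the spread behind the p-values may be technical. Each library was made from a sample of between 10000 and 20000 sorted cells.

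Each laminin is a trimer of an alpha, a beta and a gamma chain, and chains join only inside the cell before secretion. The alpha chain carries the globular end that binds cell receptors. In mature muscle the basement membrane around the fiber, under which satellite cells lie, is built mainly on the alpha chain of Lama2, whose loss causes congenital muscular dystrophy, whereas Lama4 and Lama5 encode the alpha chains of blood vessel walls.

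The libraries summed to between 12473348 and 15930638 normalized counts in mdx and to 15217054 and 16825045 in WT, where a normalized count is a read count divided by the library's size factor and rounded. Dmd had 4642, 4116 and 3700 normalized counts in mdx and 11826 and 9266 in WT. Xist, the X-inactivation RNA of female cells, had 0, 0 and 12 in mdx and 30235 and 30176 in WT, and the Y-linked Ddx3y had 827 to 966 in mdx and 9 and 0 in WT, so the genotypes cannot be told apart from sex. The satellite cell marker Pax7 was present in every library, at 12767, 9751 and 14989 in mdx and at 9103 and 7644 in WT. Its difference did not pass (limma adjusted p = 0.0698). Of 10 satellite cell markers, 2 were higher and 6 lower in mdx, against 14.6% and 10.3% of all genes tested. Their sum was 47164 to 64439 in mdx and 107160 to 118179 in WT. Much of that gap lay in Sdc4 (2633 to 3261 in mdx, 30886 and 27833 in WT) and Chodl (4554 to 7456 in mdx, 27683 and 29240 in WT). Myf5, Calcr, Vcam1 and Cd34 were also lower in mdx, and Cdh15 and Des were higher.

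Laminin chain transcripts were higher in mdx. Of the 9 chain genes, 7 rose (limma on log2 values, Benjamini-Hochberg adjusted p under 0.05 over 18199 genes tested), none fell, and Lama1 and Lamb3 did not pass. Among all genes tested, 14.6% were higher and 10.3% lower in mdx, together 24.9%. In all 7 genes every mdx library lay above both WT libraries, as it did for 28.2% of all genes tested. The median log2 fold change of the 9 chain genes was 1.15, against 0.13 over all genes tested. The rises fell into a pair of sizes. Lama4, Lama5 and Lamb1 formed the larger group, with Lamb1 13.1 and Lama5 17.8 times higher and Lama4 listed at 0 in WT, while Lama2, Lama3, Lamb2 and Lamc1 were 2.05 to 2.23 times higher.

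**Figure D1:**
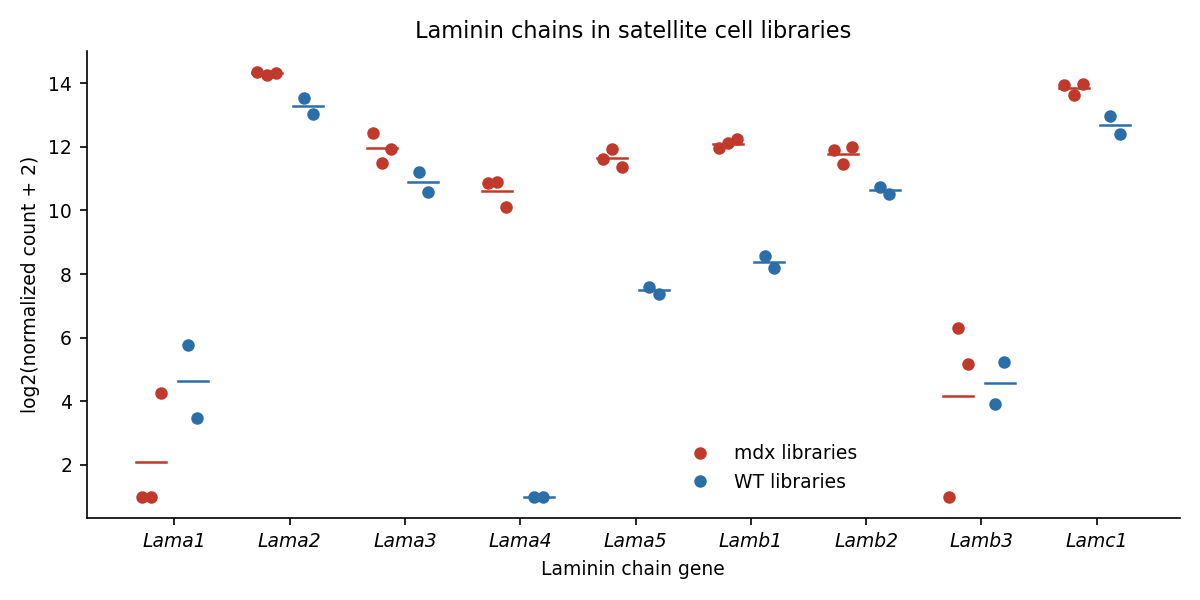
Each point is 1 library (mdx left of WT for each gene), on a log2(normalized count + 2) axis, and bars are group means on that scale. The mdx points lie above the WT points for 7 chain genes, with the widest gaps for Lama4, Lama5 and Lamb1, and the points of the genotypes overlap for Lama1 and Lamb3.

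The laminin chain genes have long transcripts, and fold changes in these libraries moved with transcript length. The longest annotated transcripts of the 9 genes run from 4867 to 11388 bases. Among the 3434 tested genes in that length range, the median log2 fold change was 0.56 and 30.6% were higher in mdx. Among the 2354 tested genes under 1000 bases, the median was −0.97 and 2.21% were higher. After the dependence on transcript length and GC content was taken out of each library, Lama4, Lama5 and Lamb1 still rose. The other 4 no longer passed, with log2 fold changes between −0.40 for Lamb2 and −0.00161 for Lamc1 instead of 1.04 to 1.16. This correction also moved the median log2 fold change of all genes from 0.13 to −0.34. Of 18173 genes, 1460 were then called higher in mdx and 3198 lower. A robust version of that correction, added after the data were seen, gave values from −0.29 for Lamb2 to 0.15 for Lamc1. Lama4, Lama5 and Lamb1 were again the 3 called. In the robust version the median of all genes was −0.15, with 1625 of 18173 called higher in mdx and 2365 lower. What part of the smaller rises belongs to genotype and what part to length was not tested further.

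**Figure D2:**
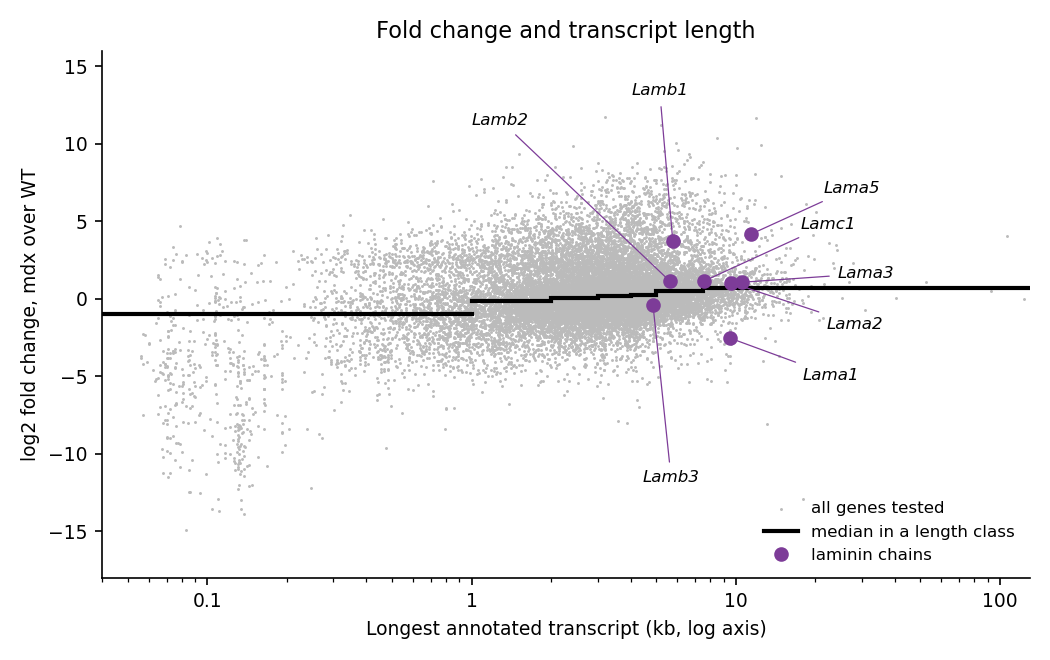
The log2 fold change of each tested gene with an annotated length (grey points) is set against the length of its longest transcript in kb on a log axis, with black lines for the median in each length class. Lama5 and Lamb1 lie far above the median of their class (0.53 for 5000 to 7500 bases, 0.68 above), and Lama2, Lama3, Lamb2 and Lamc1 lie nearer to it. Lama4 is left out because it is listed at 0 in WT.

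Among the alpha chains, Lama2 was the most abundant in both genotypes. Lama2 (ENSMUSG00000019899; mm10 chromosome 10, 26981285 to 27616843, minus strand) had 20956, 19582 and 20630 normalized counts in mdx 1, 2 and 3, against 11831 and 8350 in WT 1 and 2. The mdx libraries were within 1.07-fold of each other, and all lay above the WT libraries. On the log2 scale the rise was 1.04 (95% interval 0.65 to 1.42, SE 0.17, limma adjusted p = 0.0028). The locus also holds the antisense gene Gm48084, which shares 631 exon bases with Lama2. Gm48084 had 40, 51 and 0 normalized counts in mdx and 31 and 0 in WT, a small number beside those of Lama2.

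Lama4 was above 0 in the mdx libraries alone. Lama4 (ENSMUSG00000019846; mm10 chromosome 10, 38965515 to 39110188, plus strand), which encodes the alpha chain first known from vessel and nerve basement membranes, had 1841, 1906 and 1109 normalized counts in mdx and was listed at 0 in both WT libraries. No fold is given against 0. The difference passed (limma adjusted p = 1.85e-05), and it also passed with every library left out in turn (limma adjusted p = 0.00904 at most over all settings).

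Lama5 rose as well. Lama5 (ENSMUSG00000015647; mm10 chromosome 2, 180176373 to 180225859, minus strand), which encodes the alpha chain of embryonic and many adult basement membranes, had 3109, 3903 and 2664 normalized counts in mdx, against 192 and 163 in WT. The lowest mdx library stood far above the higher WT library. The rise was 17.8-fold (log2 4.16, 95% interval 3.59 to 4.72, SE 0.25, limma adjusted p = 1.65e-05), and the log2 fold change was 2.17 after length and GC correction.

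Lama3 and Lama1 were less certain. Lama3 (ENSMUSG00000024421; mm10 chromosome 18, 12333819 to 12583013, plus strand), known for the alpha chain that anchors epidermis, had 5549, 2865 and 3882 normalized counts in mdx, against 2348 and 1517 in WT. The groups did not overlap, but mdx 2 stood close to WT 1. Its log2 fold change of 1.07 (SE 0.30, 95% interval 0.39 to 1.74, limma adjusted p = 0.0299) was not called without mdx 1 or without mdx 3. The antisense gene Gm29200 shares 197 exon bases with Lama3 and had 31 to 202 normalized counts in mdx and 6 and 26 in WT.

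Lama1 (ENSMUSG00000032796; mm10 chromosome 17, 67697265 to 67822645, plus strand), which encodes an alpha chain of the early embryo, had 0, 0 and 17 normalized counts in mdx and 53 and 9 in WT. These values overlap and are low, and the difference did not pass (log2 fold change −2.54, 95% interval −6.12 to 1.05, limma adjusted p = 0.271).

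Of the beta chains, Lamb1 rose far more than Lamb2. Lamb1 (ENSMUSG00000002900; mm10 chromosome 12, 31265234 to 31329644, plus strand), which encodes the beta chain found in most basement membranes, had 3965, 4434 and 4824 normalized counts in mdx, against 381 and 292 in WT. No mdx library came near the WT values. The rise was 13.1-fold (log2 3.71, 95% interval 3.22 to 4.20, SE 0.22, limma adjusted p = 1.41e-05), and the log2 fold change was 2.73 after length and GC correction.

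Lamb2 (ENSMUSG00000052911; mm10 chromosome 9, 108479857 to 108490530, plus strand), which encodes the beta chain concentrated at the neuromuscular junction and in the kidney filter, had 3788, 2842 and 4072 normalized counts in mdx, against 1716 and 1477 in WT. The groups did not overlap. On the log2 scale the rise was 1.15 (95% interval 0.67 to 1.63, SE 0.21, limma adjusted p = 0.00503). Lamb3 (ENSMUSG00000026639; mm10 chromosome 1, 193207725 to 193343878, plus strand), the beta chain gene of skin anchoring laminin, had 0, 77 and 34 normalized counts in mdx and 13 and 36 in WT. These values overlap, and the difference did not pass (limma adjusted p = 0.881).

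Lamc1 (ENSMUSG00000026478; mm10 chromosome 1, 153218922 to 153332786, minus strand), which encodes the gamma chain present in most laminin trimers, had 15844, 12595 and 15955 normalized counts in mdx, against 8034 and 5411 in WT. All mdx libraries lay above the WT libraries. On the log2 scale the rise was 1.16 (95% interval 0.70 to 1.61, SE 0.20, limma adjusted p = 0.00368), and without mdx 1 it narrowly missed the threshold (1.10, limma adjusted p = 0.0502, in a range up to 0.996 over all settings). The gamma chain gene Lamc3 was low, with 38 to 49 normalized counts in mdx and 2 and 20 in WT, and did not pass (limma adjusted p = 0.1998).

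Libraries of 1 genotype also differed among themselves. All 6 called chain genes that were above 0 in WT were higher in WT 1 than in WT 2, by 1.16-fold for Lamb2 to 1.55-fold for Lama3. The summed mesenchymal progenitor markers were 18168 in WT 1 and 9598 in WT 2, and the summed endothelial markers 171 and 348. Col3a1 made up most of the mesenchymal sums, at 16215 in WT 1 and 7707 in WT 2. Of the other mesenchymal markers, Pdgfrl, Col1a1 and Pi16 were higher in WT 1, and Pdgfra, Dcn, Lum, Ly6a and Smoc2 were higher in WT 2. Among the mdx libraries, mdx 2 was the lowest for Lama2, Lama3, Lamb2 and Lamc1 and the highest for Lama4 and Lama5. The part of cell makeup in these orders was not tested.

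The promoters of Lama5 and Lamb1, which rose most among the genes above 0 in WT, are shown with those of Lama2 and Lamb2, which moved less. Promoter entries of 5 of the 9 chain genes (Lama2, Lama5, Lamb1, Lamb2 and Lamb3) were taken from RefSeq (GRCm38.p6, the assembly of mm10). No entry was found for Lama1, Lama4 and Lamc1, and the promoter of Lama3 was not examined. Each sequence covers 250 bases before to 50 bases after the annotated start, 5′ to 3′ on the gene's strand, with GC boxes (GGGCGG on either strand) in capitals.
Lama5, chr2:180225810-180226109, minus strand: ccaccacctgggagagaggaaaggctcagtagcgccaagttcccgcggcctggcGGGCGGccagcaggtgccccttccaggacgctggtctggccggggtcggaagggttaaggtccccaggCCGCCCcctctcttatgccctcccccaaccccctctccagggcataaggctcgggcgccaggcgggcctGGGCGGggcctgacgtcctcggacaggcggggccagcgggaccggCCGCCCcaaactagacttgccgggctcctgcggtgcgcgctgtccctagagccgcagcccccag
Lamb1, chr12:31265043-31265342, plus strand: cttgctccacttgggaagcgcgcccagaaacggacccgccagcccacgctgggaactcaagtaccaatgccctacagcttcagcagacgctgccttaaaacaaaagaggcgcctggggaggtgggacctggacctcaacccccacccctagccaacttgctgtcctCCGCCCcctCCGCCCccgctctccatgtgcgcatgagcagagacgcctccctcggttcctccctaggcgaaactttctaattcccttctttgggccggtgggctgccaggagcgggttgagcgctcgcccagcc
Lama2, chr10:27616893-27617192, minus strand: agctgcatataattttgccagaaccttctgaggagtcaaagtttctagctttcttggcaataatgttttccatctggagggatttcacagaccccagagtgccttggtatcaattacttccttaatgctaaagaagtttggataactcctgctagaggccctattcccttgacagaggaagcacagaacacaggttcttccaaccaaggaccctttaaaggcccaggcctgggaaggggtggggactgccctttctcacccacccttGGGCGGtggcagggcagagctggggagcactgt
Lamb2, chr9:108479612-108479911, plus strand: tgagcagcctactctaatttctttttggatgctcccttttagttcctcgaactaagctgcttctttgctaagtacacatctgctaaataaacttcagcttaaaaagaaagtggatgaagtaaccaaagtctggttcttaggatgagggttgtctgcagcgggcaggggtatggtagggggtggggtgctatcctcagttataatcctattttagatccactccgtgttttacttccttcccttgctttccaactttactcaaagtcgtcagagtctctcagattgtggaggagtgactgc

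The Lama5 window held 4 GC boxes and the Lamb1 window 2, while the Lama2 window held 1 and the Lamb2 window 0. A GC box was found in 35.7% of the 32851 RefSeq promoter windows of this length. GC content was 72.7% for Lama5, 63.7% for Lamb1, 50.3% for Lama2 and 44.0% for Lamb2, against a median of 52.7% over all windows. No TATA box (TATAAA, either strand) was present in the 4 windows, and 13.6% of all windows held one. The E-box (CANNTG, the motif read by myogenic factors among others) occurred in each of the 4 windows and in 72.3% of all windows. These matches describe the letters in the windows and not the binding of a factor.

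Levels of different chains were compared per kb of the longest transcript. In mdx the order of mean normalized counts per kb was Lama2 at 2121 ± 74.7, Lamc1 at 1941 ± 250, Lamb1 at 762 ± 74.4, Lamb2 at 634 ± 114, Lama3 at 389 ± 128, Lama5 at 283 ± 55.1 and Lama4 at 268 ± 73.2 (SD, n = 3), with Lamb3 and Lama1 under 10. Only the steps after Lamc1 and after Lama4 separated neighbours whose libraries did not overlap. In WT the order was Lama2 at 1049.56 ± 256, Lamc1 at 882 ± 243, Lamb2 at 284 ± 30.02, Lama3 at 183 ± 55.7, Lamb1 at 58.2 ± 10.9 and Lama5 at 15.6 ± 1.80 (SD, n = 2), with Lamb3, Lama1 and Lama4 lowest. Lama2 and Lamc1 overlapped in WT, as did Lamb3 and Lama1, and the other neighbours did not. Lamb1 thus stood above Lamb2 on average in mdx, with overlapping libraries, and below Lamb2 in WT.

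The mix of chains within a library does not depend on how the library was scaled. Lama2 made up 69.4% ± 3.45 of the alpha chain counts per kb in mdx and 84.0% ± 0.795 in WT. Lama4 made up 8.72% ± 2.24 in mdx and 0 in WT, and Lama5 made up 9.28% ± 1.98 in mdx and 1.27% ± 0.177 in WT. The share of Lama3 was 12.6% ± 3.43 in mdx and 14.5% ± 0.770 in WT, with overlapping libraries. The beta chains differed more: Lamb1 made up 54.4% ± 4.65 in mdx and 16.7% ± 1.33 in WT, and Lamb2 made up 45.0% ± 5.27 in mdx and 81.8% ± 0.201 in WT (SD, n = 3 and n = 2 throughout). Lamb1 and Lamb2 have transcripts of similar length, 5784 and 5629 bases. No mdx library overlapped a WT library in the shares of Lama1, Lama2, Lama4, Lama5, Lamb1 and Lamb2, each with p = 0.2 in a two-sided exact permutation test, the smallest value that the 10 arrangements of 3 against 2 libraries allow (0.267 after Benjamini-Hochberg adjustment over 8 shares). This test therefore cannot pass 0.05 for a share at these group sizes. Summed beta chains per kb were 0.654 to 0.779 times Lamc1 in mdx and 0.354 and 0.451 times Lamc1 in WT. Summed alpha chains were 1.40 to 1.80 times Lamc1 in mdx and 1.40 and 1.45 times Lamc1 in WT. These ratios were not tested.

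**Figure D3:**
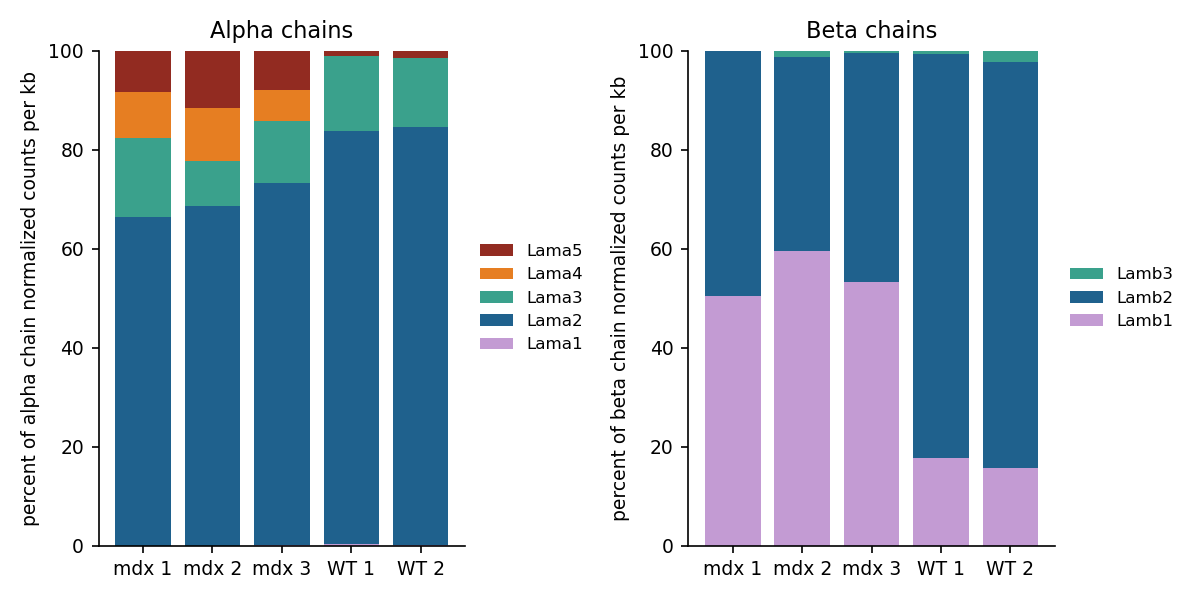
Stacked bars give, for each library, the percent of alpha chain (left) and beta chain (right) normalized counts per kb that each gene holds, mdx libraries left of WT libraries. Lama4 and Lama5 appear as bands of 6.25% to 11.6% in mdx, and Lamb1 fills 50.5% to 59.6% of the beta bars in mdx and 15.8% and 17.6% in WT.

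Laminins act on cells through integrins, dystroglycan and a few other receptors, and 10 of these were examined. In mdx 6 rose, 1 fell and 3 did not pass, with a median log2 fold change of 1.81, against 0.13 over all genes tested. Of all genes tested, 14.6% were higher and 10.3% lower in mdx. Dag1, encoding dystroglycan, which binds laminin outside the cell and dystrophin inside it, had 38850, 37894 and 54368 normalized counts in mdx, against 20779 and 10801 in WT. All mdx libraries were above the WT libraries, and the rise was 2.88-fold (limma adjusted p = 0.00387). Itga7, encoding the main laminin-binding integrin alpha chain of muscle, had 5129, 5696 and 5810 in mdx, against 3066 and 2701 in WT, a 1.92-fold rise (limma adjusted p = 0.00388). Both calls ended when length and GC content were corrected for (log2 fold changes of 0.54 for Dag1 and −0.25 for Itga7), and that of Dag1 also without mdx 3 (1.36).

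Itgb1, encoding the beta chain shared by most laminin-binding integrins, was the receptor gene that fell. It had 7756, 8871 and 8797 normalized counts in mdx, against 14742 and 11798 in WT (log2 fold change −0.64, 95% interval −1.004 to −0.28, limma adjusted p = 0.0196). Itgb1 still passed after length and GC correction (log2 fold change −1.02, median of all genes −0.34) and in the robust version (−0.76, median of all genes −0.15). Its call was lost with equal library totals (−0.45), and its direction turned with quantile normalization (0.22). Its fall was also not called without mdx 1, mdx 2, mdx 3 or WT 1, at log2 fold changes of −0.58, −0.67, −0.67 and −0.48.

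Itga1, encoding a collagen and laminin receptor chain, rose 36.5-fold to 1571, 1630 and 1596 normalized counts in mdx, against 38 and 46 in WT (limma adjusted p = 1.77e-05). Bcam, encoding a receptor for the Lama5 chain, rose 3.40-fold to 1383, 1487 and 1262 in mdx, against 439 and 370 in WT (limma adjusted p = 0.00101). Mcam, encoding a receptor for the Lama4 chain on vessels and leukocytes, rose 7.72-fold to 1198, 1270 and 1143 in mdx, against 495 and 47 in WT (limma adjusted p = 0.0234), and its call ended without any 1 of the mdx libraries. The size of the Mcam rise rested on which WT library was used, with a log2 fold change of 4.62 without WT 1 and 1.28 without WT 2, against 2.95 with both. Itgb4, the integrin partner of epithelial anchoring laminin, rose 3.62-fold to 378, 597 and 377 in mdx, against 140 and 103 in WT (limma adjusted p = 0.0125), and was not called without mdx 2 or mdx 3. With length and GC content corrected for, Bcam (log2 fold change 0.62) and Itgb4 (0.11) no longer passed. Itga1 still passed, at a log2 fold change of 4.35 instead of 5.19. Itga6 had 1583, 1374 and 1189 in mdx, against 2 and 402 in WT. The WT libraries lay far apart, and Itga6 did not pass (limma adjusted p = 0.0563). Its log2 fold change was 1.77 without WT 1 and 8.42 without WT 2. Leaving out either WT library removes the spread between them, so those fits cannot decide the call. Itga6 passed with equal library totals (5.28), with quantile normalization (4.71) and with a stricter filter on low values (5.10, limma adjusted p = 0.0386). Itga2 (35 to 221 in mdx, 0 and 22 in WT) and Itga3 (177 to 565 in mdx, 77 and 212 in WT) did not pass. The log2 fold change of Itga2 was 5.30 without WT 1 and 1.71 without WT 2, instead of 3.51. That of Itga3 was 0.47 without WT 1 and 1.90 without WT 2, instead of 1.19.

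The other basement membrane components rose together. All 9 examined passed as higher in mdx, as did 14.6% of all genes tested, and their median log2 fold change was 2.47. Nid1, encoding nidogen, which links laminin to type IV collagen, had 4981, 4043 and 4026 normalized counts in mdx, against 444 and 235 in WT, a 13.3-fold rise (limma adjusted p = 5.19e-05). Nid2, its homolog, rose 3.05-fold (log2 1.61), but was not called without mdx 1, mdx 2 or mdx 3, and its log2 fold change was 2.21 without WT 1 and 1.01 without WT 2. Hspg2, encoding the proteoglycan perlecan, had 43751, 40484 and 50910 in mdx, against 7641 and 7475 in WT, a 5.93-fold rise (limma adjusted p = 1.31e-05). For these genes every mdx library lay above both WT libraries, as it did for 28.2% of all genes tested.

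Agrn, encoding agrin, which binds laminin and clusters acetylcholine receptors at the synapse, rose 5.54-fold. Col4a1 and Col4a2, encoding the main type IV collagen chains, rose 4.79-fold and 8.26-fold. Col15a1 and Col18a1, encoding collagens of the basement membrane zone, rose 4.76-fold and 7.22-fold, and Sparc, encoding a collagen-binding matricellular protein, rose 4.52-fold. Col15a1 was not called without mdx 1 or without mdx 3, and its log2 fold change of 2.25 was 2.96 without WT 1 and 1.54 without WT 2. After length and GC correction the log2 fold change of Hspg2 was 0.42, that of Nid2 0.58 and that of Col15a1 1.01, and these 3 no longer passed, though Col15a1 did in the robust version. The other 6 still passed, at log2 fold changes of 0.74 instead of 2.26 for Col4a1, 0.95 instead of 2.47 for Agrn, 1.07 instead of 2.85 for Col18a1, 1.21 instead of 3.05 for Col4a2, 1.89 instead of 2.18 for Sparc and 2.82 instead of 3.74 for Nid1.

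**Figure D4:**
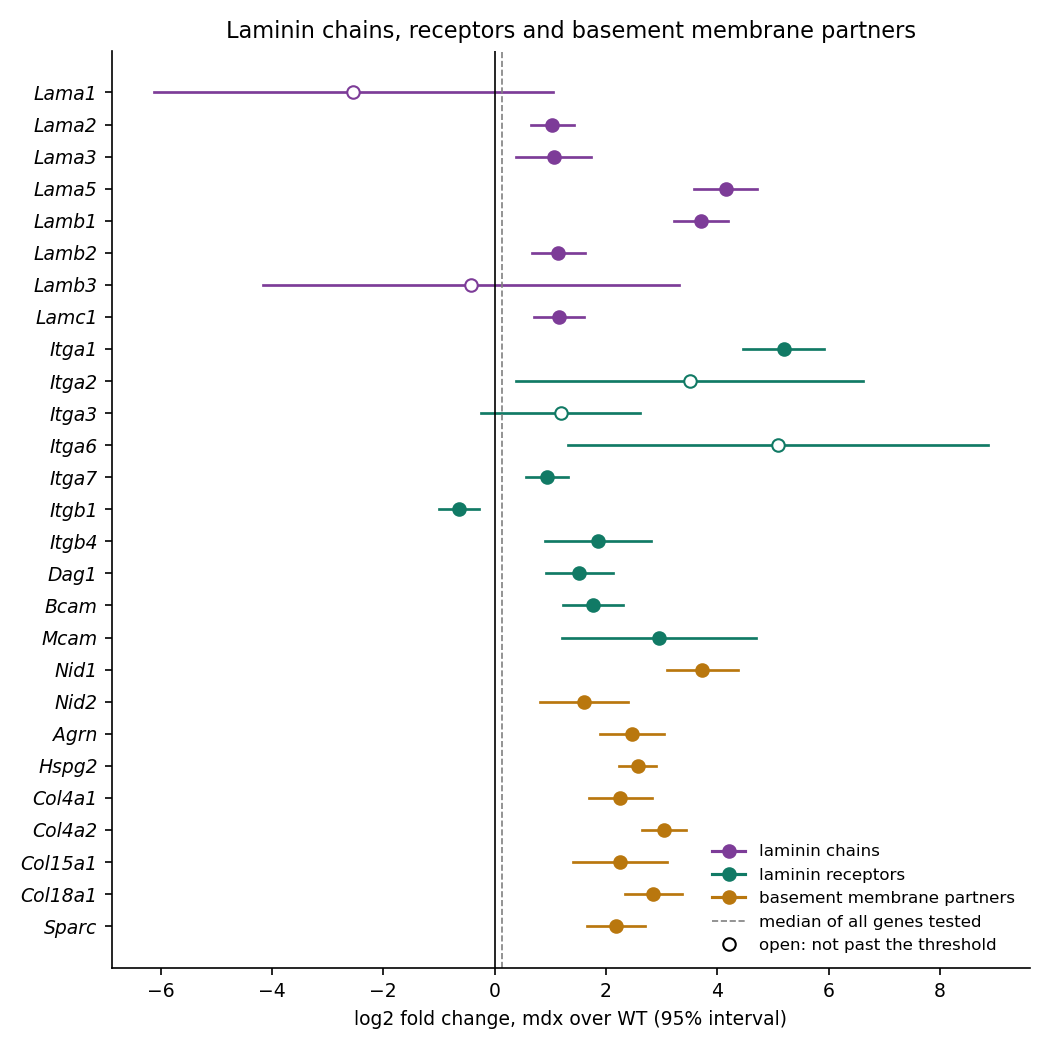
Points give the log2 fold change of mdx over WT with its 95% interval from limma for laminin chains, laminin receptors and basement membrane partners, filled where the adjusted p was under 0.05. Lama5 (4.16) and Lamb1 (3.71) stand apart from the other laminin chains, and Itgb1 (−0.64) is the filled point below 0. The dashed line is the median of all genes tested (0.13), and Lama4 is left out because it is listed at 0 in WT.

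Markers of other cell types known to make laminins were counted in the same way, and most endothelial and mesenchymal progenitor markers were higher in mdx. Over all genes tested, 14.6% were higher and 10.3% lower. Of 12 endothelial markers, 12 rose, with sums of 16869 to 23473 normalized counts in mdx and 171 and 348 in WT, and Emcn, Cldn5, Robo4 and Erg were listed at 0 in both WT libraries. Of 12 mesenchymal progenitor markers, 11 rose, with sums of 80524 to 143544 in mdx and 9598 and 18168 in WT, and Dpp4 and Mfap5 were listed at 0 in WT. Of 9 Schwann and nerve markers, 6 rose, with overlapping sums of 2675 to 2905 in mdx and 2305 and 3090 in WT, and Cdh19, S100b and Ncmap were at 0 in WT. Pmp22, which did not pass, made up most of the WT sums, at 2656 in WT 1 and 1753 in WT 2, against 1281 to 1399 in mdx. Of 8 pericyte and smooth muscle markers in the table, 3 rose and 5 did not pass, with sums of 18828 to 26464 in mdx and 10657 and 13503 in WT, and none was at 0 in both WT libraries. Notch3, which did not pass, made up most of these sums, at 10608 to 17437 in mdx, 10021 in WT 1 and 7611 in WT 2.

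Of 10 macrophage markers, 8 rose, with sums of 9944 to 14986 in mdx and 416 and 647 in WT, and Mrc1, C1qa, C1qb, C1qc and Itgam were at 0 in WT. Of 7 tenocyte markers, 6 rose, with sums of 7500 to 18286 in mdx and 73 and 155 in WT, and Tnmd, Thbs4 and Kera were at 0 in WT. Of 12 myofiber genes, 4 rose and 8 did not pass, with sums of 31598 to 73592 in mdx and 4308 and 5963 in WT. Ttn, whose longest transcript has 106824 bases, held 23685 to 64744 of these in mdx and 2475 and 2100 in WT. The part of these cell types in the laminin values was not tested, and in bulk RNA more cells of a type and more RNA per cell cannot be told apart.

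Genes whose centred log2 profiles over the 5 libraries lay nearest to each called chain gene were listed by root mean square distance. The nearest 3 to Lama4 were Col6a3 (0.20), Col1a2 (0.23) and Igfbp3 (0.30), with Col6a3 at 8700, 7231 and 6236 normalized counts in mdx and at 7 and 6 in WT. The nearest to Lama5 were Sv2b (0.11), Thbs1 (0.12) and Slc6a17 (0.13), where Sv2b and Slc6a17 were listed at 0 in both WT libraries. Lama4 was too, so the distances to Lama4 and those of Sv2b and Slc6a17 depend on the 2 added before taking logs. The nearest to Lamb1 were Plekhg5, Nfic and Adgrl3 (each 0.16). The nearest to Lama2 were Igf2r (0.039), Akap2 (0.043) and Ick (0.051). Those to Lamc1 were Arhgef18 (0.061), Thsd4 (0.077) and Plcb3 (0.079), those to Lamb2 were Mxd4 (0.030), Madd (0.092) and Fchsd2 (0.099), and those to Lama3 were Pou6f1 (0.077), Akap5 (0.095) and Traf4 (0.13). With 5 libraries in 2 groups, these distances mostly rank genes by a like fold change.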

How the data were processed

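RNA was sequenced from 3 mdx and 2 WT libraries of sorted satellite cells with a stranded low-input total RNA kit, per the labels' protocols. The submitters' processing notes name STAR 2.6.1d, featureCounts 1.6.3 from Subread, DESeq2 1.18.1 and the build mm10. How strand and multimapping reads were handled is not stated there. The unit of the table deposited by the authors is treated as a score, the normalized count: values are whole numbers, yet the columns share 1 median ratio to each gene's geometric mean (1.03 to 1.04, over genes above 0 in every library), and mdx 1 skips 6 of the whole numbers from 1 to 30. Raw counts were not used, and depth in reads is unknown.

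The analysis used log2(normalized count + 2) of genes that reached 10 in at least 2 libraries. They were tested with limma 3.58.1 (R 4.3.3), genotype as the only term, with trended robust moderation. P-values are two-sided and adjusted by Benjamini-Hochberg over all tested genes, threshold 0.05. The added 2 pulls folds of low genes toward no change. Fold changes are differences of group means on that scale. Shares were tested by exact permutation (scipy 1.17.1). Lengths and GC content came from the longest transcript in GENCODE M21, which holds 22649 of the 22683 identifiers, 17202 with the same coordinates. The correction for them used natural splines with 5 degrees of freedom each.

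The members, gene lists and tests were chosen with earlier results of these data known. All 9 chain genes, the receptors and the basement membrane partners are named whatever their test, marker lists are given as counts, some listed genes are not reported here, and the 3 nearest genes exclude clone, model and pseudogene names. Alternatives were other pseudocounts (10 and 0.5), filters, scalings, moderation, length and GC correction, the replicate block and leaving out each library. The limma step was tested on simulated data.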

Additional observations from a re-analysis of the deposited data

How the results depend on the processing

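Over all settings, Lama4, Lama5 and Lamb1 were called in each, with log2 fold changes without 1 library of 4.01 to 4.28 for Lama5 and 3.52 to 3.90 for Lamb1. The count of called laminin chains was 7, and 5 to 7 with 1 library left out. It was 3 after length and GC correction, 3 with the robust version and 3 with limma without trend and robust moderation. Length and GC correction turned the log2 fold changes to −0.056 (Lama2), −0.14 (Lama3), −0.40 (Lamb2) and −0.0016 (Lamc1), and to −0.17 (Itga3) and −0.25 (Itga7). The robust version gave 0.12, −0.018, −0.29 and 0.15 for the same 4 chains, −0.036 for Itga3 and −0.12 for Itga7. Without trend and robust moderation, the values of 1.04 (Lama2), 1.07 (Lama3), 1.15 (Lamb2) and 1.16 (Lamc1) were the same but not called, because only the variance estimate differs. With 1 library left out, Lama3 ranged from 0.75 to 1.38 and Lamc1 from 0.87 to 1.44, with calls lost as given above, and Lamb3 from −1.49 to 1.16. Lamb3 was 0.051 with a pseudocount of 10. Quantile normalization gave 0.22 for Itgb1 and larger rises for Lama2 (1.87), Lamc1 (1.85), Dag1 (2.63), Hspg2 (3.49) and Sparc (2.87). The cause of the other changes was not tested.

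The receptors and partners called numbered 16, then 9 and 10 after the length and GC corrections, 10 without trend and robust moderation, and 10 to 18 with 1 library left out. Calls over all genes were 4527, against 3005 without trend and robust moderation and 2562 to 5161 with 1 library left out, the lowest without mdx 3 and also low without mdx 1 (2975) and mdx 2 (2677). Where 1 WT library is left, it is assumed to vary like the mdx libraries. Of the calls over all genes, 58.7% were higher in mdx. After the length and GC corrections, 4658 and 3990 of 18173 genes were called, 31.3% and 40.7% of them higher in mdx. Those corrections moved the median log2 fold change of all genes to −0.34 and −0.15. Equal library totals moved it to 0.32. Labels number the libraries 1 and 2 in both genotypes. Deviations of same-numbered libraries did not correlate across genes (r = −0.014 and −0.017). The deviations of the 2 WT libraries mirror each other, so this check cannot settle whether the numbers pair the samples. The replicate block over numbers 1 and 2 called 7 laminin chains, 12 receptors and partners and 3146 genes. Shares kept their direction with exon union lengths, with no division by length and without any 1 library. Rounding and unknown read depth limit Lama1, Lamb3 and Lamc3.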
